A study of Rattus norvegicus with 6 samples.

Results

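Neutrophil granule proteins were followed as 10 genes, each read by 1 probe set, out of 14506 genes with a single symbol among the 29215 rows of the deposited table. They were taken by symbol and grouped by where the protein is stored. Mpo, Elane, Prtn3 and Ctsg belong to azurophil granules, Camp, Ngp, Ltf and Lcn2 to specific granules, and S100a8 and S100a9 to the cytosol. RNA came from long-bone cells of Sprague Dawley rats aged 2 to 5 days, untreated apart from the plate coating. Extracted cells were left to adhere to wells coated with mouse prothrombin (PT) or with osteopontin from bovine milk (OPN), and the attached cells were read on Affymetrix Rat Gene 1.0 ST arrays. Each coating had 3 arrays, numbered 1, 2 and 4 for PT and 2, 3 and 4 for OPN. The labels name neither neutrophils nor a purification step. They also leave unsaid whether different animals or cultures stood behind the arrays, and p-values therefore cover array-to-array spread alone, part or all of which may be technical. In such mixed samples, fewer cells of a type and less RNA per cell cannot be told apart.

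Neutrophils are made in the marrow of the long bones and fill their granules in a fixed order while they mature. Azurophil granules form first, in promyelocytes, and hold myeloperoxidase and serine proteases. Specific granules form later, in myelocytes and metamyelocytes, and hold lactoferrin, lipocalin and cathelicidin, while the S100 proteins of calprotectin build up in the cytosol. The messages follow the same order, so that azurophil genes mark early precursors and specific granule genes later ones.

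The values are linear PLIER signals, a summary of the probe intensities of a probe set. Array medians lay between 208 and 231 units. Across rows, arrays of the same coating correlated at 0.988 or more and arrays of different coatings at 0.979 or less. PT replicate 4 was the highest PT array in 10 of 10 genes, against 40.4% of all rows. In Elane, Prtn3, Camp, Ngp, Ltf, Lcn2, S100a8 and S100a9 it lay within the OPN range. In Mpo and Ctsg it lay above every OPN array. The differences of the 10 genes and the counts of the other neutrophil lists are therefore also given without it. Over all rows PT replicate 4 was not displaced in the same way. Its median log2 difference from the mean of PT replicates 1 and 2 was 0.03, compared with 0.39 over the 10 genes.

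None of the 10 genes differed between coatings at the threshold used, although all 10 lay above 0. OPN was compared with PT on the log2(signal + 16) scale, with limma's test and Benjamini-Hochberg adjustment over all rows. At adjusted p below 0.05 it called 0 of the 10 genes, while it called 5.82% of all rows, 5.05% higher and 0.77% lower on OPN. At an unadjusted p below 0.05, 4 of the 10 genes passed, against 17.7% of all rows. The median log2 difference (OPN minus PT) was 0.12 over the 4 azurophil genes, 0.40 over the 4 specific granule genes and 0.46 over the 2 cytosolic genes, beside 0.03 over all rows. In the same order the medians were 0.20, 0.61 and 0.70 without PT replicate 4. They were 0.02, 0.26 and 0.29 without PT replicate 1, and 0.12, 0.35 and 0.39 without PT replicate 2. Once same-numbered arrays were blocked (the replicate block) they were 0.00016, 0.21 and 0.26. That block leaves only the arrays numbered 2 and 4 to set the difference, since the other numbers occur in 1 coating each. The difference between classes was not tested. The arrays of the coatings overlapped in each of the 10 genes, whereas in 23.7% of all rows they did not. Without PT replicate 4 the test called 5 of the 10 genes higher on OPN, namely Camp, Ngp, Lcn2, S100a8 and S100a9, and 4.64% of all rows. Leaving out any 1 of the other 5 arrays called 0. Removing the highest PT array raises the difference and narrows the PT range by construction. These 5 calls therefore describe the remaining 5 arrays and do not support a difference between the coatings. The values without PT replicate 4 in the following paragraphs are to be read in the same way. Leaving out the lowest PT array lowers the difference by construction. PT replicate 1 was that array in Mpo, Elane, Ngp, Lcn2, S100a8 and S100a9, so the values without it carry the opposite limit.

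**Figure D1:**
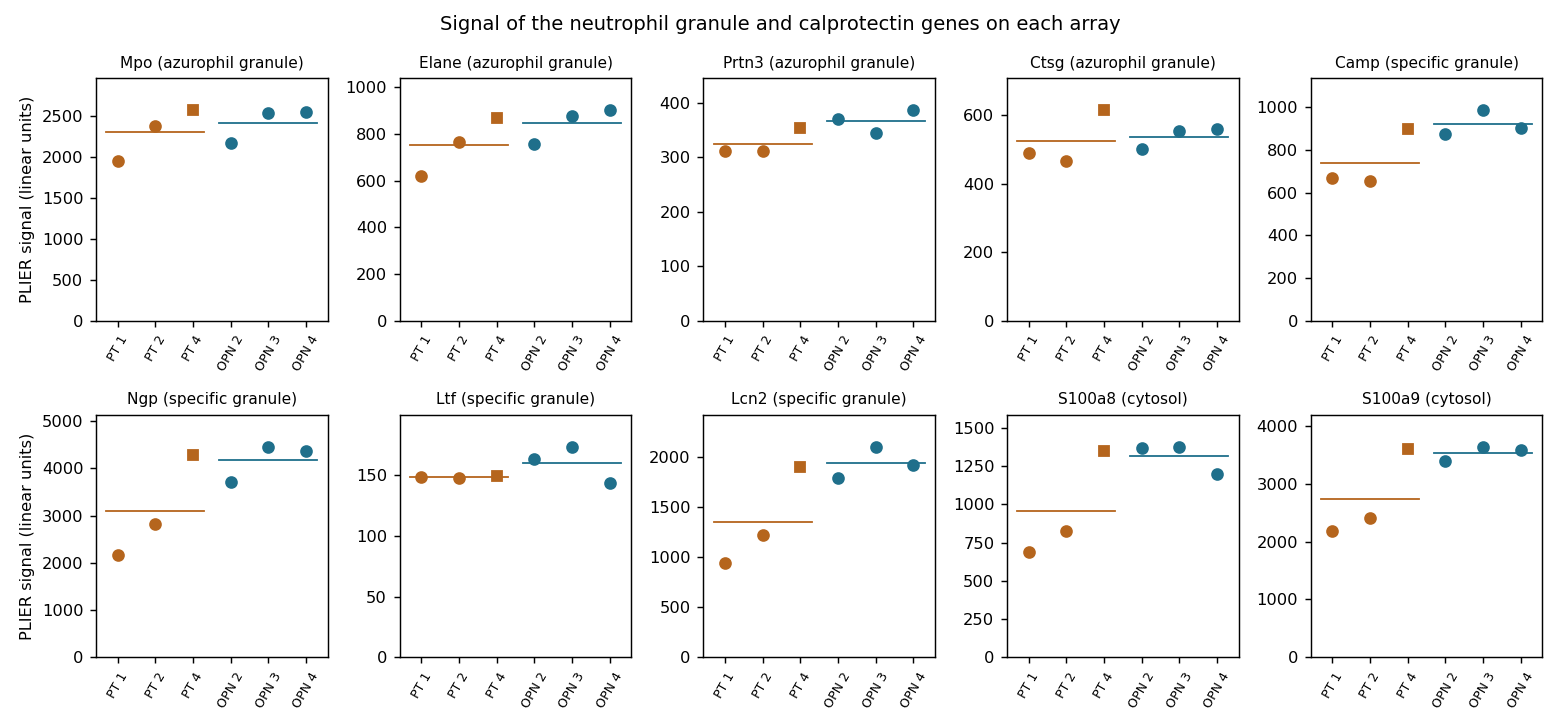
Linear PLIER signal (vertical axes, from 0) of each of the 10 genes on the 6 arrays, with PT arrays in brown, OPN arrays in blue, PT replicate 4 as a square and group means as lines. PT replicate 4 lies among the OPN arrays for Prtn3, Camp, Ngp, Lcn2, S100a8 and S100a9, while PT replicates 1 and 2 lie below them. It also lies among them for Elane and Ltf, where PT replicate 2 does too.

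The sequences upstream of 4 of the genes are shown so that genes of all 3 classes can be compared at their promoters. They are taken from RefSeq on GRCr8, the 250 bases before the annotated start, and capitals mark matches to any of 3 motifs searched on both strands. The table used held 8 of the 10 genes, all but Elane and S100a8.
Mpo, chr10:73092152-73092401, plus strand: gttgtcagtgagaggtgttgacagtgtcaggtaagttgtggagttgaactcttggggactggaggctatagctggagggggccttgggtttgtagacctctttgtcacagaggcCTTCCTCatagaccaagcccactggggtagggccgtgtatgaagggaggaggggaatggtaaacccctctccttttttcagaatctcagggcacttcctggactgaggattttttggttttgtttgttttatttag
Ngp, chr8:119272355-119272604, plus strand: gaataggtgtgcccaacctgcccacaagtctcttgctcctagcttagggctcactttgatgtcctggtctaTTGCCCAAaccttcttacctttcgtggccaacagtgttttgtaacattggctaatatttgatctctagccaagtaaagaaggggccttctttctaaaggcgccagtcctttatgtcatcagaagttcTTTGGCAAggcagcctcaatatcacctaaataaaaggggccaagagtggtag
Lcn2, chr3:36081781-36082030, minus strand: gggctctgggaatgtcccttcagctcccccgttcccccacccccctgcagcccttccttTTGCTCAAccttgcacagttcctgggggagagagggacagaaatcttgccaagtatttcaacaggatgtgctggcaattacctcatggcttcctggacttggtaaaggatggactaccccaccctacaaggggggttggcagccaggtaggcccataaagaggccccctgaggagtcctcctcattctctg
S100a9, chr2:178490623-178490872, minus strand: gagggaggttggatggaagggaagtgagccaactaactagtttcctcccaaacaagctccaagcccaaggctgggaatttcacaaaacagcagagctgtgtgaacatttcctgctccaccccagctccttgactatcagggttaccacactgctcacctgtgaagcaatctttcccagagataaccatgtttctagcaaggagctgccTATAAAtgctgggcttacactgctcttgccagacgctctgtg

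The motif TTGCNNAA, a form bound by C/EBP factors, occurred in Ngp and Lcn2 among the 8 genes and in 9.22% of all 33469 promoters of the table. Ngp held it at 179 and, on the opposite strand, at 52 bases before the start, and Lcn2 held it at 191. The motif GAGGAAG, a core bound by PU.1, occurred in Mpo (136 bases before the start, on the opposite strand), Prtn3 (93) and Ctsg (199), all azurophil genes, and in 10.2% of all promoters. TATAAA occurred in Ctsg (164 bases before the start, on the opposite strand) and S100a9 (42 bases before the start), and in 12.9% of all promoters. No match overlapped another in the 4 sequences. These are matches of letters in a short window, and no factor binding was measured.

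In the GRCr8 gene table Elane and Prtn3 are next to each other on chromosome 7 and S100a8 and S100a9 on chromosome 2, with 0 protein-coding genes between them. Camp, Ngp and Ltf all lie on chromosome 8, with 9 protein-coding genes between Camp and Ngp and 21 between Ngp and Ltf. Mpo, Ctsg and Lcn2 are each the only one of the 10 on their chromosome.

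Azurophil genes had the smallest median difference between the coatings. Mpo, which makes hypochlorous acid from hydrogen peroxide, had signals of 1948, 2384 and 2575 units on PT and 2171, 2539 and 2546 on OPN. The ranges overlapped almost entirely. The log2 difference was 0.08 (SE 0.12, 95% interval -0.19 to 0.34, adjusted p = 0.814), a 1.05-fold difference between means of 2302 ± 321 on PT and 2419 ± 214 on OPN (SD, n = 3 each).

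Elane, neutrophil elastase, had 622, 767 and 869 units on PT and 760, 876 and 903 on OPN. Only PT replicate 1 lay below all OPN arrays, and the difference of 0.17 (SE 0.12) did not pass (adjusted p = 0.557). Prtn3, proteinase 3, is the neighbour of Elane and a close relative. It had 311, 310 and 352 units on PT and 370, 344 and 386 on OPN, with a difference of 0.17 (SE 0.08, adjusted p = 0.324). Here only PT replicate 4 reached into the OPN range. Ctsg, cathepsin G, had 489, 468 and 616 units on PT and 501, 555 and 559 on OPN, so that its highest value was a PT array. Its difference of 0.05 (SE 0.11, 95% interval -0.20 to 0.29) had an adjusted p of 0.893 and turned to -0.02 with equal array medians and to -0.03 with quantile normalisation.

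Without PT replicate 4 the azurophil differences were 0.16 for Mpo, 0.28 for Elane, 0.23 for Prtn3 and 0.16 for Ctsg, and none was called (adjusted p between 0.197 and 0.547 in limma's test). In all 4 genes PT replicate 4 was the highest PT array. Mpo turned to -0.04 without PT replicate 1 and Ctsg to -0.03 without PT replicate 2.

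Among the specific granule genes Lcn2, Ngp and Camp had larger differences than any azurophil gene, and Ltf did not. Lcn2, the lipocalin that binds bacterial siderophores, had 945, 1223 and 1899 units on PT and 1792, 2103 and 1925 on OPN. PT replicates 1 and 2 lay well below every OPN array and PT replicate 4 within the OPN range. The log2 difference over all arrays was 0.57 (SE 0.21, 95% interval 0.08 to 1.06, adjusted p = 0.207), or 1.48-fold. Without PT replicate 4 it was 0.84 (SE 0.13, adjusted p = 0.0108 in limma's test), or 1.79-fold. Without PT replicate 1 it was 0.34 (adjusted p = 0.379), and with the replicate block 0.28 (adjusted p = 0.522).

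Ngp, neutrophilic granule protein, belongs to the cystatin-like proteins related to cathelicidins and was described in mouse marrow. It had 2164, 2829 and 4278 units on PT and 3721, 4460 and 4366 on OPN. The PT arrays spanned a wider range than the OPN arrays, with SDs of 1081 and 402 units. The difference was 0.49 (SE 0.21, adjusted p = 0.284) with all arrays and 0.75 (SE 0.14, adjusted p = 0.0232) without PT replicate 4. It was 0.26 (adjusted p = 0.512) without PT replicate 1 and 0.21 (adjusted p = 0.601) with the replicate block.

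Camp, the cathelicidin precursor, had 668, 654 and 898 units on PT and 873, 986 and 901 on OPN. PT replicates 1 and 2 were close to each other and below the OPN arrays. The difference was 0.32 (SE 0.12, adjusted p = 0.212), and 0.47 (SE 0.08, adjusted p = 0.0218) without PT replicate 4. With the replicate block it was 0.21 (adjusted p = 0.628).

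Ltf, the iron-binding lactoferrin, was dim. It had 148, 148 and 149 units on PT and 163, 173 and 143 on OPN, below the median signal of every array. It was the 1 gene of the 10 whose log2 values varied more among OPN arrays than among PT arrays. Its difference was 0.09 (SE 0.08, adjusted p = 0.640) and 0.10 (SE 0.09, adjusted p = 0.663) without PT replicate 4. Detection calls were not used here, so whether this row lay above background is not known.

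The calprotectin genes S100a8 and S100a9 encode calcium-binding partners that form a zinc- and manganese-binding complex, the main cytosolic protein of neutrophils. S100a8 had 687, 829 and 1346 units on PT and 1367, 1377 and 1199 on OPN. S100a9 had 2190, 2406 and 3599 units on PT and 3399, 3637 and 3577 on OPN. In both genes PT replicate 4 lay within the OPN range and the other PT arrays lay below it. The log2 differences were 0.51 for S100a8 (SE 0.21, adjusted p = 0.250) and 0.40 for S100a9 (SE 0.16, adjusted p = 0.243). Without PT replicate 4 they were 0.78 (SE 0.11, adjusted p = 0.00798) and 0.62 (SE 0.08, adjusted p = 0.00627), or 1.72-fold and 1.54-fold. Without PT replicate 1 they were 0.31 and 0.26 (adjusted p = 0.465 and 0.456), and with the replicate block 0.27 and 0.24 (adjusted p = 0.683 and 0.592).

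**Figure D2:**
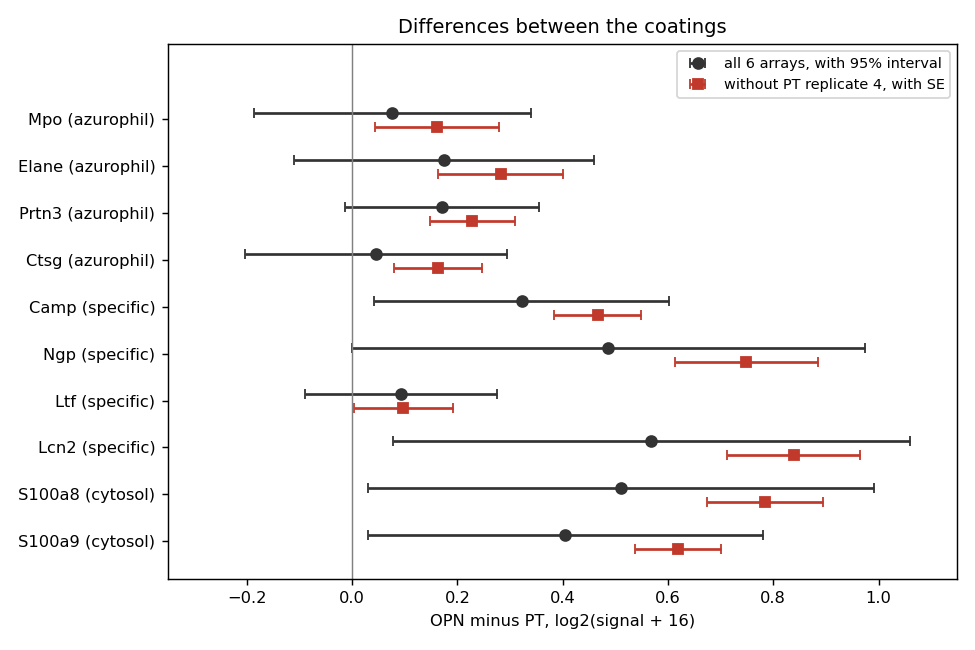
Log2 difference of OPN minus PT on the log2(signal + 16) scale (horizontal axis) for each gene, with all 6 arrays and 95% intervals (circles) and without PT replicate 4 and standard errors (squares). The azurophil genes and Ltf lie at 0.17 or below with all arrays, and the other 5 genes lie between 0.32 and 0.57.

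The PT arrays varied more among themselves than the OPN arrays. In 9 of the 10 genes the SD of the log2 values was larger on PT than on OPN. The median SD was 0.24 on PT and 0.11 on OPN over the 10 genes, beside 0.10 and 0.09 over all rows. PT replicate 4 exceeded the mean of PT replicates 1 and 2 by 0.82 for S100a8, 0.81 for Lcn2, 0.79 for Ngp, 0.65 for S100a9 and 0.43 for Camp. It exceeded them by 0.17 to 0.35 for the azurophil genes and by 0.01 for Ltf. The mean of the OPN arrays lay within 0.1 of PT replicate 4 in 9 of the 10 genes, the exception being Ctsg (-0.19). The share of all rows within 0.1 was not counted. The median of this difference (OPN mean minus PT replicate 4) was -0.03 over the 10 genes and 0.01 over all rows. A signed median near 0 does not show how many rows lie close to PT replicate 4. Whether that closeness is particular to the 10 genes is therefore not known.

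Per array, the mean of the log2 values centred on each gene's mean gave the following picture. For the specific granule genes it was -0.44, -0.26 and 0.16 on PT replicates 1, 2 and 4 and 0.11, 0.29 and 0.16 on OPN replicates 2, 3 and 4. For the cytosolic genes it was -0.57, -0.37 and 0.26 on PT and 0.23, 0.28 and 0.17 on OPN. The azurophil genes spanned less, at -0.22, -0.09 and 0.13 on PT and -0.04, 0.08 and 0.13 on OPN. The summed signal of the 10 genes was 10172 to 16581 units on PT and 15118 to 17050 on OPN, so that the groups overlapped.

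**Figure D3:**
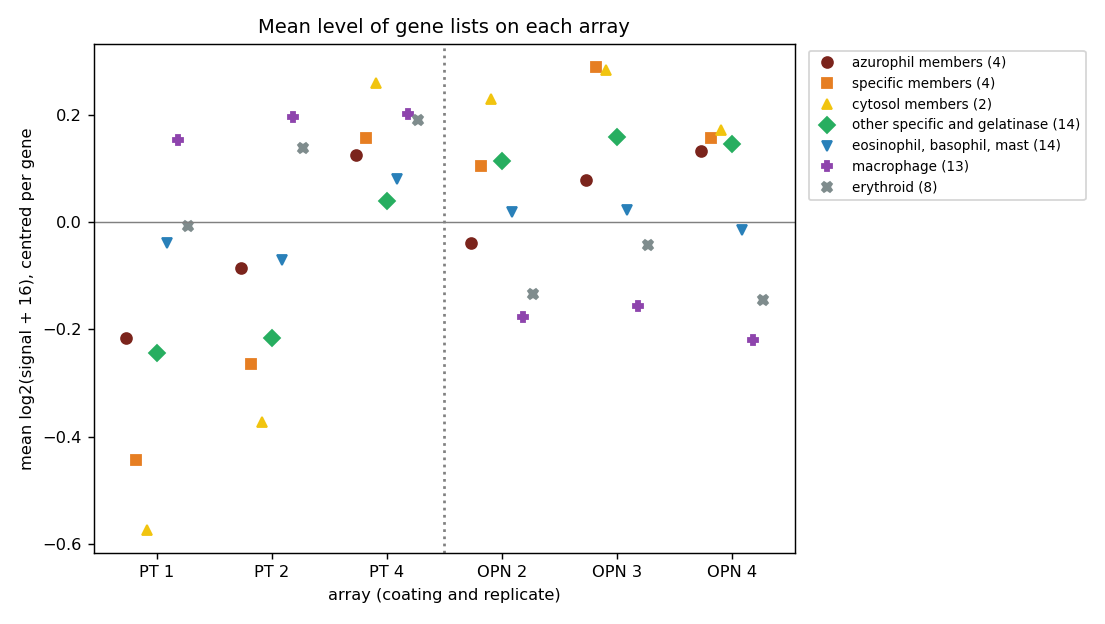
Mean of log2(signal + 16), centred per gene (vertical axis), of 7 gene lists on each of the 6 arrays, with the number of genes in brackets. The specific granule and cytosolic genes are at -0.26 or below on PT replicates 1 and 2 and above 0 on the other arrays, while the macrophage genes separate the coatings, with PT replicate 4 among the PT arrays.

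The other neutrophil lists held 74 measured genes, of which 14 were called higher and 3 lower, against 5.05% and 0.77% of all rows. Leaving out PT replicate 4 gave 21 and 1, with 4.64% of all rows called higher. Other proteins of specific and gelatinase granules gave a mixed picture with all arrays. Of 14 measured genes 1 was called higher and 2 lower, with a median log2 difference of 0.22. The counts were 6 and 1 and the median 0.35 without PT replicate 4. Mmp9, the gelatinase of tertiary granules, rose by 2.90 (SE 0.09, adjusted p = 5.07e-07), but it is also made by osteoclasts and stands in the osteoclast list. That list was called higher in 7 of 8 genes, with a summed signal of 3502 to 3746 units on PT and 21432 to 24164 on OPN, and its part in the Mmp9 difference was not tested. Anxa3, an annexin that binds granule membranes, fell by 0.52 (SE 0.07, adjusted p = 0.00200). Cybb, the membrane subunit of the NADPH oxidase, fell by 0.31 (SE 0.07, adjusted p = 0.0329), a call lost when any 1 array was left out (adjusted p between 0.0662 and 0.155). Cybb is also made by macrophages, whose list was called lower in 8 of 13 genes, with a summed signal of 14477 to 15236 units on PT and 10522 to 11219 on OPN. The part of macrophages in the lower Cybb signal was not tested.

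The collagenase gene Mmp8, stored in specific granules, had 750, 775 and 1205 units on PT and 1099, 1250 and 1257 on OPN. Its signals thus placed PT replicate 4 with the OPN arrays, as for Lcn2 and Ngp. Olfm4, a glycoprotein of a subset of neutrophils, and Pglyrp1, which binds bacterial peptidoglycan, did the same, with 889 and 962 units on PT replicate 4 against 531 to 636 and 607 to 715 on the other PT arrays. None of these 3 was called with all arrays (differences 0.43, 0.37 and 0.32, adjusted p between 0.226 and 0.323 in limma's test). Without PT replicate 4 the differences were 0.64, 0.57 and 0.50 (adjusted p = 0.00754, 0.0187 and 0.0399). Of the other neutrophil lists that fit also called Serpinb10, Hp, Ceacam1 and Il1r2 higher, the last 3 named after their values were seen. Cyba, the partner of Cybb, lay at -0.08 (adjusted p = 0.683).

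**Figure D4:**
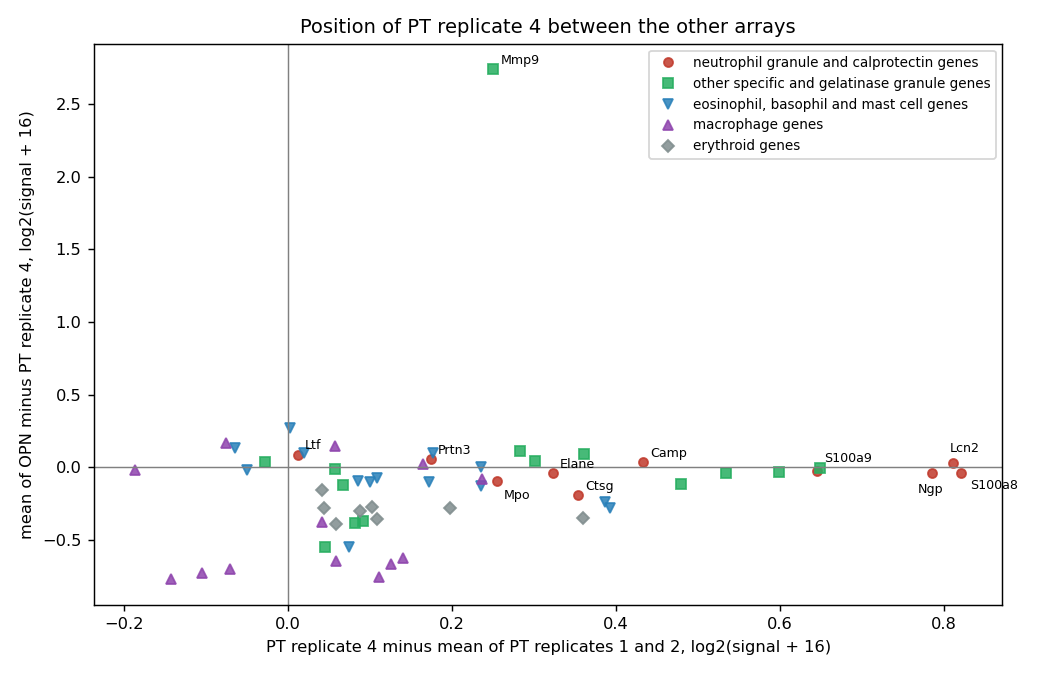
For single genes, the log2(signal + 16) of PT replicate 4 minus the mean of PT replicates 1 and 2 (horizontal axis) against the mean of the OPN arrays minus PT replicate 4 (vertical axis). Lcn2, S100a8 and Ngp lie farthest right, at 0.79 to 0.82, and within 0.04 of 0 vertically. Mmp9 lies at 2.74 vertically.

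Of 8 measured genes for further contents of azurophil granules, 2 were called higher and 1 lower, against 5.05% and 0.77% of all rows. The median was 0.09. The counts were 2 and 0 and the median 0.18 without PT replicate 4. Cd63 (0.72, SE 0.08), a membrane protein of azurophil granules and lysosomes, and Gusb (0.74, SE 0.09), a lysosomal glucuronidase, rose, with adjusted p of 0.00105 and 0.00163 in limma's test. Both serve lysosomes of many cells. Ctsc, the protease that activates the granule serine proteases, fell by 0.32 (SE 0.07, adjusted p = 0.0372), a call lost when any 1 array was left out (adjusted p between 0.0681 and 0.164). The lysozyme gene Lyz2 had 1719, 1932 and 2710 units on PT and 2200, 2699 and 2590 on OPN, with PT replicate 4 the highest of all arrays. Its difference was 0.26, and 0.44 (adjusted p = 0.0772 in limma's test) without PT replicate 4. Srgn, the proteoglycan that retains granule cargo, lay at 0.11, and at 0.21 without that array. With all arrays these genes, the alpha-defensin gene Defa5 (0.06) and the cathepsin inhibitor gene Cst7 (-0.03) were not called. Alpha-defensin genes have near-identical copies, so this row may read others of the family.

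Among surface proteins of neutrophils, 3 of 16 measured genes were called higher and 0 lower, against 5.05% and 0.77% of all rows. The median was 0.10, and without PT replicate 4 the counts were 4 and 0 and the median 0.14. The 3 were the membrane peptidase genes Mme (3.45) and Anpep (1.20) and the phosphatase gene Alpl (2.14). These enzymes are also made by stromal cells and osteoblasts, and Alpl stands in the osteoblast list, which rose in 11 of 11 genes. The summed signal of that list was 11094 to 12086 units on PT and 56594 to 63186 on OPN, and its part was not tested. The integrin chain gene Itgb2 (-0.14), the amplifying receptor gene Trem1 (0.09), the chemokine receptor gene Cxcr2 (0.14) and the G-CSF receptor gene Csf3r (0.10) were not called (adjusted p between 0.582 and 0.669 in limma's test). Cxcr2 had 336, 364 and 479 units on PT and 398, 453 and 442 on OPN, with its highest value on PT replicate 4, and its difference without that array was 0.29 (adjusted p = 0.142).

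Of 5 measured oxidase genes only Cybb was called, against 5.82% of all rows in either direction. Without PT replicate 4, 0 were called. Rac2, the GTPase that activates the oxidase, lay at 0.27 (SE 0.13, adjusted p = 0.341), with 1201, 1519 and 1743 units on PT and 1665, 1956 and 1730 on OPN. It lay at 0.39 (adjusted p = 0.144) without PT replicate 4. The cytosolic subunit genes Ncf1 (0.02) and Ncf4 (0.12) were not called. Among 11 measured factors of granulocyte formation, Cbfb, the partner of RUNX factors, rose by 0.50 (SE 0.08, adjusted p = 0.00587) and was the 1 call, as it was without PT replicate 4 (0.56, adjusted p = 0.00827). Cebpe, which drives specific granule genes, had 429, 403 and 420 units on PT and 405, 436 and 408 on OPN. Its difference was 0.00 (SE 0.07, 95% interval -0.16 to 0.15, adjusted p = 0.987), and PT replicate 4 lay between the other PT arrays. Runx1 (0.11), Cebpb (0.18) and Klf5 (0.10) were not called.

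Of 10 measured inhibitors of granule proteases, 4 were called higher and 0 lower, against 5.05% and 0.77% of all rows. Without PT replicate 4 the counts were 5 and 0, with 4.64% of all rows called higher. The 4 were the cystatin genes Cst3 (1.80) and Cstb (0.45), the broad inhibitor gene A2m (0.76) and the serpin gene Serpinb6a (0.72). The call of Cstb was lost without any 1 array other than PT replicate 4 (adjusted p between 0.0520 and 0.117) and with equal array medians (adjusted p = 0.0740). Serpinb1a, the cytosolic inhibitor of elastase, proteinase 3 and cathepsin G in neutrophils, had 1427, 1584 and 1848 units on PT and 1492, 1652 and 1640 on OPN. Its difference was -0.02 (SE 0.10, adjusted p = 0.967). Slpi, a secreted inhibitor of elastase, lay at 0.15 and Wfdc21 at -0.03. Serpinb10 had a difference of 0.47 (SE 0.14, adjusted p = 0.119), and 0.64 without PT replicate 4.

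Among the other 12 measured S100 genes, 3 were called higher and 0 lower, against 5.05% and 0.77% of all rows. The counts were the same without PT replicate 4. S100a10, the partner of annexin A2, rose by 1.38, S100a4 by 0.86 and S100a11 by 0.90 (adjusted p = 7.58e-06, 0.000311 and 0.0114 in limma's test). These genes are active in osteoblasts as well, whose list was called higher on the same arrays, and the part of those cells was not tested. S100a11 had 774, 1004 and 1289 units on PT and 1794, 1924 and 1928 on OPN, so that PT replicate 4 was the highest PT array but stayed below the OPN arrays. Leaving out OPN replicate 3 raised its adjusted p to 0.0526. S100a1 (0.09), S100a16 (0.41), S100pbp (0.07) and S100a3 (-0.03) were not called.

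Over the macrophage and osteoblast lists PT replicate 4 lay with the other PT arrays. In the macrophage list it was the highest PT array in 5 of 13 genes and in the osteoblast list in 4 of 11, while in the cell cycle list it was the highest in 13 of 13. Its median log2 difference from the mean of PT replicates 1 and 2 was 0.06 over the macrophage list, 0.05 over the osteoblast list, 0.09 over the erythroid list, 0.14 over the cell cycle list and 0.10 over the list of eosinophil, basophil and mast cell genes. In that last list 1 of 14 measured genes was called, against 5.82% of all rows, and 0 were called without PT replicate 4. It was the eotaxin receptor gene Ccr3, which fell by 0.50 (SE 0.09, adjusted p = 0.0147 in limma's test). Summed signals of the list were 7239 to 9371 units on PT and 7978 to 8345 on OPN. Lymphoid markers were called in 0 of 8 measured genes (1 at an unadjusted p below 0.05) and had a median of 0.06. No gene in any list was listed at 0, the lowest signal being 62.1 units in the macrophage list.

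The genes whose values followed each class most closely over the 6 arrays were searched among 14329 genes outside the lists. For the specific granule genes they were Rhoa (Pearson r = 0.999), Hgh1 (0.992) and Macroh2a1 (0.991), for the cytosolic genes Med30 (0.995), Ola1 (0.994) and Slc25a16 (0.993), and for the azurophil genes Rad51d (0.990), C3h15orf48 (0.986) and Gstm6l (0.984). An r above 0.95 was reached by 165, 129 and 46 genes. These are descriptions over 6 arrays, which share their preparation and scaling with the genes compared. None of the 9 genes was called between the coatings, and their log2 differences lay between 0.04 and 0.23.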

How the data were processed

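Per the submitters' processing notes, the authors made the deposited intensity values with Affymetrix Expression Console and PLIER. Each is the linear signal of 1 probe set on 1 array, and none is below 0. For versions, background correction, scaling and genome build, nothing was found (not given in the sources used here). Array number limits the precision.

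Symbols came from the platform annotation (15310 rows with 1 symbol, 323 with several, 13582 with none), and a gene with several rows was read from its brightest row on average. Each of the 10 genes had 1 row, and S100a11 has others.

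Values were transformed to log2(intensity + 16), and fold differences are on that scale. All 29215 rows were fitted in limma 3.58.1 (lmFit, eBayes; R 4.3.3), with no block and Benjamini-Hochberg adjustment. "Called", "rose" and "fell" mean adjusted p below 0.05, OPN minus PT. The genes and lists were chosen with earlier results of these data known. Named genes are the 10, every called gene of the neutrophil lists with up to 4 more of highest signal, and the 3 genes closest to each class. Of 201 list genes 177 were measured. The other lists give up to 3 genes of smallest p where a result turns on them. The 14 alternatives are listed in the closing section.

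Both coatings have replicates 2 and 4, which no label ties to a shared preparation.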

Additional observations from a re-analysis of the deposited data

How the results depend on the processing

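The 14 alternatives were an offset of 1 or 64, equal array medians, quantile normalisation, rows with a mean signal under 50 left out, the mean of all rows of a gene, an intensity trend in eBayes, the replicate block, and each of the 6 arrays left out in turn. Of the 10 genes, 0 to 5 were called higher when 1 array was left out, the 5 only without PT replicate 4, and 0 under every other alternative; 0 were called lower throughout. Signs turned only for Mpo and Ctsg. Mpo lay at -0.075 with the replicate block and between -0.038 and 0.161 with 1 array left out, negative without PT replicate 1. Ctsg lay at -0.0198 with equal medians, -0.028 with quantile normalisation and -0.01998 with the replicate block. With 1 array left out Ctsg lay between -0.029 and 0.163, negative without PT replicate 2. The array left out was in each case the gene's lowest PT array, and leaving that out lowers the difference by construction. Why the signs turned under the other alternatives was not tested. The genes of the other neutrophil lists called lower numbered 3 with all arrays, 0 with the replicate block and 1 to 2 with 1 array left out; those called higher numbered 14, 11 and 12 to 21. Over all rows the calls numbered 1700, of which 86.8% were higher on OPN (68.1% with equal medians and 64.6% with quantile normalisation), 666 with the replicate block, 1080 without OPN replicate 2 and 1023 without OPN replicate 3. The correlation of deviations from the coating means was -0.08 for the arrays numbered 2 and 0.07 for those numbered 4. Arrays of different numbers gave -0.11 to 0.18. With 2 such pairs these values cannot decide whether same-numbered arrays share a preparation. Fewer arrays leave fewer degrees of freedom, and so does the replicate block, in which only the arrays numbered 2 and 4 set the difference. No detection calls were used, so the part of background in dim rows such as Ltf is not known.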

Other observations

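Eosinophil granule genes, chosen after their values were seen, did not separate the coatings. Prg2, which encodes the major basic protein of eosinophil granules, had 3727, 4498 and 5358 units on PT and 4289, 4590 and 4716 on OPN, with a log2 difference of 0.02 (SE 0.12, adjusted p = 0.972 in limma's test). Epx, the eosinophil peroxidase related to Mpo, had 913, 979 and 1247 units on PT and 1039, 1001 and 1026 on OPN, with a difference of -0.02 (SE 0.11, adjusted p = 0.957). In both genes PT replicate 4 gave the highest signal of all 6 arrays, above every OPN array, as it did in Mpo and Ctsg. In Prg3, a homologue of Prg2 with 644, 625 and 750 units on PT and 639, 760 and 663 on OPN, it was the highest PT array but lay below OPN replicate 3.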
